A study of Homo sapiens with 4 samples.

Results

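The 49 genes described here carry out nucleotide excision repair, base excision and single-strand break repair, mismatch repair, direct reversal of base damage and translesion DNA synthesis. They were chosen by name from these pathways and found by Ensembl gene ID among the 61852 gene rows measured in each library, and all 49 were found and tested. The RNA came from H1299, a line of human lung carcinoma (non-small-cell) labelled p53-/- in every sample. The cells of 2 libraries expressed p53WT, and those of the other 2 expressed CASM34, a form of p53 from a series whose title concerns cancer-associated synonymous mutations and the DNA damage response of p53. The labels name neither a damaging agent nor the way in which the p53 forms were introduced, and no library without a p53 form was analysed here. They also do not say that the 2 libraries of a group came from separate cultures, so the p-values measure no more than the spread among the libraries sequenced, and that spread may be technical.

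Excision repair removes a damaged base or a damaged stretch of a strand and fills the gap from the intact strand, mismatch repair corrects copying errors, and translesion polymerases copy past lesions that stop the replicative polymerases. p53 is a transcription factor, and DDB2, XPC and POLH are known targets whose transcription it can raise after DNA damage. DDB2 and XPC find lesions such as ultraviolet photoproducts anywhere in the genome, and POLH copies past them. The question put to these genes was whether the 3 p53-induced members differed between CASM34 and p53WT cells, and how the other 46 stood beside them.

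The start regions of these 3 genes are shown because p53 can act through DNA motifs near such starts. They were read from the RefSeq promoter windows on GRCh38.p14, each running from 250 bases before to 50 bases after a gene start, and 46 of the 49 members had 1 or more windows (63 in all). Windows were searched on both strands for the p53 consensus decamer and for a full site, meaning 2 such decamers separated by at most 13 bases. A full site was present in 10 of 35116 windows of all genes (0.0285%), and among the members only in a DDB2 window. A decamer was present in 6.63% of all windows and in 2 of the 63 member windows, those of DDB2 and UNG. The DDB2 decamers lie at chr11:47214979-47214988 and chr11:47214990-47214999 on the + strand, with 1 base between them, and the nearer begins 5 bases after the second of the RefSeq starts in these tables. The UNG decamer lies at chr12:109097624-109097633 on the + strand. Each is shown in capitals within a stretch of 30 bases, chr11:47214975-47215004 for DDB2 and chr12:109097614-109097643 for UNG.
DDB2 p53 site: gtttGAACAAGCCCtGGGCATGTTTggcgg
UNG p53 decamer: gccacagccaGGGCTAGCCTcgccggttcc

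The 250 bases before the same DDB2 start (chr11:47214724-47214973, + strand), the XPC start (chr3:14178602-14178851, - strand) and the POLH start (chr6:43575935-43576184, + strand) hold GC boxes, the motif GGGCGG on either strand, marked in capitals. They are shown to set the start regions of the 3 genes beside each other, since none of these stretches holds a p53 decamer. A GC box was present in 76.2% of the member windows and in 44.95% of all windows. A match is a description of the letters and not a measured binding site. The search allowed no mismatch and covered only these windows. Absence of a match in XPC or POLH therefore does not show that these genes lack p53 sites. In POLH the run of 11 capitals is 2 overlapping boxes.
DDB2 upstream: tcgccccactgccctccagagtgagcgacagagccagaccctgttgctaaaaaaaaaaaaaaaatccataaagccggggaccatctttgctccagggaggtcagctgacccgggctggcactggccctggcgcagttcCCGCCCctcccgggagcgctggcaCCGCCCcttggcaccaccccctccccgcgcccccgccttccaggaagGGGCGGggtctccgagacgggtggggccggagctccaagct
XPC upstream: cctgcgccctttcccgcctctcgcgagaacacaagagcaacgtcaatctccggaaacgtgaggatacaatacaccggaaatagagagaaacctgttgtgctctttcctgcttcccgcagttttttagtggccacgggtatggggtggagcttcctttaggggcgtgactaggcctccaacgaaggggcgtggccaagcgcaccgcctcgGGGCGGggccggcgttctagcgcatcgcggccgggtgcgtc
POLH upstream: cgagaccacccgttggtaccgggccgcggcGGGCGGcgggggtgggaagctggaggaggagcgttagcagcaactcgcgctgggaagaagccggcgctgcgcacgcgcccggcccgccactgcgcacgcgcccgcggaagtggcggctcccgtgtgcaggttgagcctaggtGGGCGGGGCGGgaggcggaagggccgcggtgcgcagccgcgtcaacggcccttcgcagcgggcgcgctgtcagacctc

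The 4 libraries held 18086983 to 26906095 estimated counts. The keratins KRT8 and KRT18 were abundant. The epithelial markers EPCAM and CDH1 were near 0, at means of at most 0.163 TPM. TPM is a level per transcript length, scaled to a fixed library total. The keratin KRT19 was also low, at a mean of 0.4375 TPM. The mesenchymal markers VIM, CDH2 and FN1 had means of 3440, 14.4 and 18.8 TPM. Summed leukocyte markers lay between 1.52 and 1.77 TPM in p53WT and between 2.33 and 4.89 TPM in CASM34, with PTPRC and CD3E at 0. Most of each sum was ITGAM, at 1.47 and 1.10 TPM in p53WT and 1.71 and 4.55 TPM in CASM34. The 4.55 TPM, in CASM34 replicate 2, came with an estimated transcript length of 1625 bases, against 4423 bases in CASM34 replicate 1. Mitochondrially encoded mRNAs took 1.03% to 1.35% of counts in p53WT and 1.37% to 1.71% in CASM34. Fold differences also followed the GC content of the transcripts, which is taken up for the members below. The slope per library, in log2 units per 10 points of GC, was -0.058 and -0.055 in p53WT. In CASM34 it was 0.074 and 0.040, so the slopes of the groups did not overlap. The part of these differences in the results was not tested.

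Of the 49 repair genes, 1 rose in CASM34 cells (DDB2), 0 fell, and 48 did not pass the test. The test was edgeR's quasi-likelihood test with a Benjamini-Hochberg adjusted p under 0.05 over the 15965 genes tested, of which 312 passed (1.95%), 257 upward (1.61%) and 55 downward (0.345%). At an unadjusted edgeR p under 0.05 there were 6 members (12.2%: DDB2, PMS1, MSH6, ERCC5, REV3L and PARP1), against 17.1% of all genes. The share of members called is thus near that of all genes. In bulk RNA, fewer cells with a transcript and less of it per cell cannot be told apart.

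Differences among the members were small. Their log2 fold changes, CASM34 over p53WT, ran from -0.37 (PMS1) to 0.33 (DDB2), with a median size of 0.07 beside 0.11 over all genes tested. The members leaned to lower values in CASM34: 35 of 49 lay below 0 (71.4%), against 50.2% of all genes, and their median was -0.05. The CPM ranges of the groups did not overlap for 23 members (46.9%), and the same held for 47.9% of all genes. CPM here is a gene's share of its library's counts, on the usual scale and adjusted between libraries by TMM. Summed over the 49 members, CPM came to 2832 and 2871 for p53WT and to 2791 and 2712 for CASM34.

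**Figure D1:**
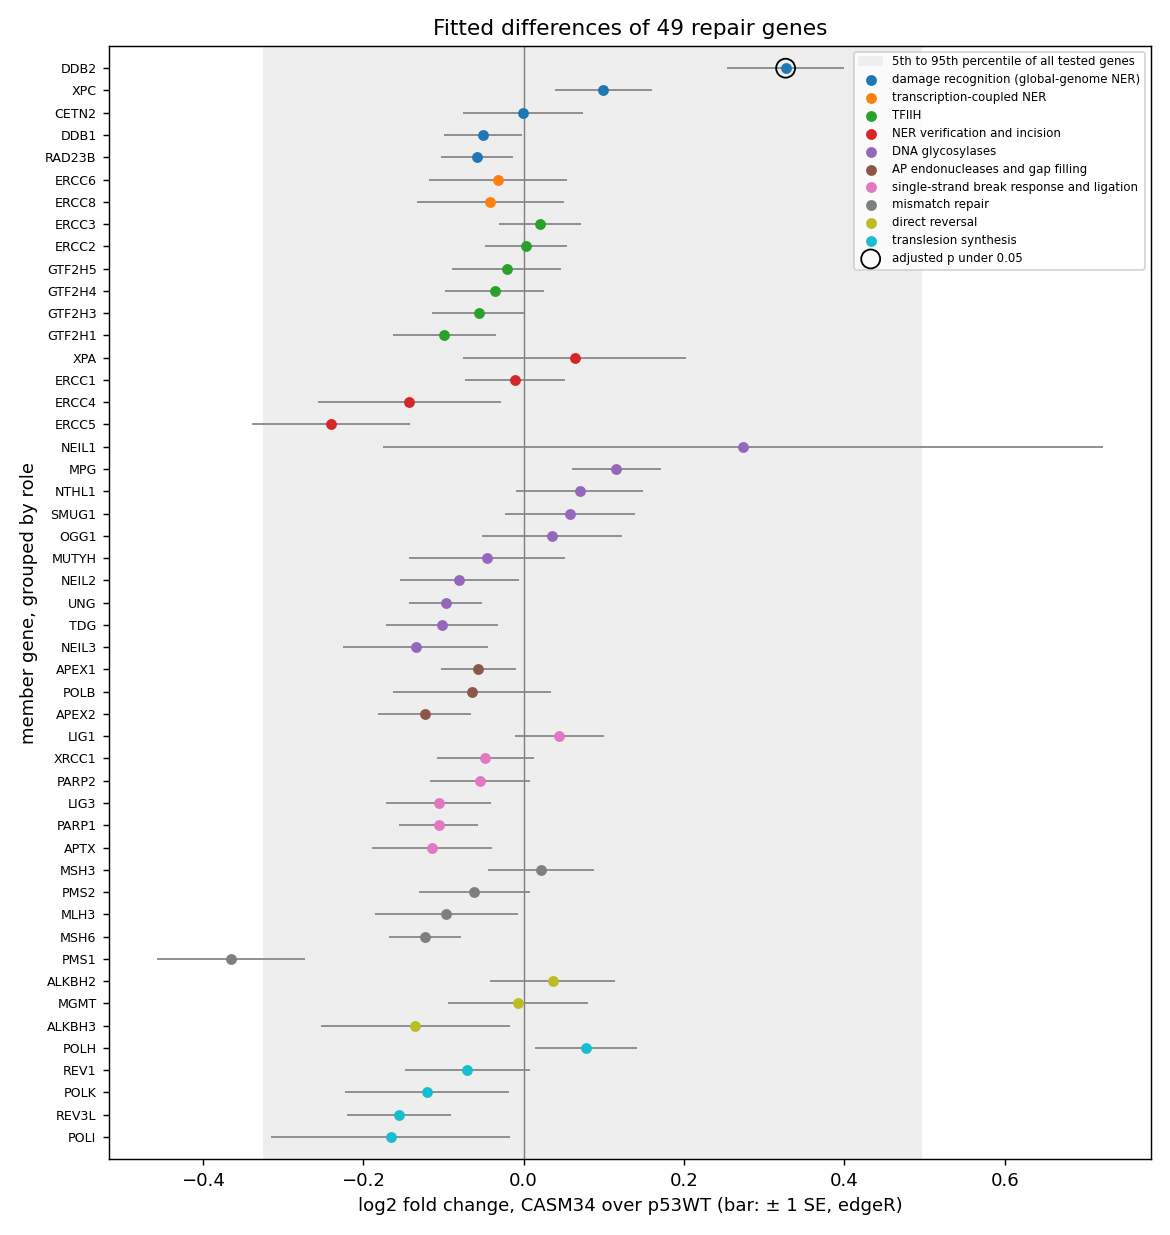
Log2 fold change of each repair gene (x axis, CASM34 over p53WT, with a bar of 1 SE from the edgeR fit), in rows grouped by role. DDB2 carries the circle for an adjusted p under 0.05, most genes lie left of 0, and the grey band spans the 5th to 95th percentile of all tested genes.

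All 3 p53-induced members had a fold change above 0, with a median of 0.10, while 11 of the other 46 lay above 0 and 35 below (76.1%), with a median of -0.06. These medians describe 3 and 46 chosen genes and carry no test. Of the 3, DDB2 alone passed. DDB2 (ENSG00000134574.12, chr11:47214465-47239240, + strand, GENCODE 29 on GRCh38) encodes the damage-binding subunit that recruits a ubiquitin ligase to photolesions. The p53WT libraries had 25.7 and 24.8 CPM and the CASM34 libraries 31.0 and 32.4 CPM, so that each CASM34 library lay above each p53WT library. The means were 25.2 ± 0.677 and 31.7 ± 1.04 CPM (SD, n = 2), and the log2 fold change was 0.33 (SE 0.07, edgeR adjusted p = 0.0398). In TPM the groups did not overlap either, at 26.3 and 23.3 for p53WT and 29.9 and 35.1 for CASM34.

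The DDB2 call lies close to the threshold. Its direction held under all 16 alternative settings, with log2 fold changes from 0.29 to 0.39, and the call was lost under 8 of them. Without p53WT replicate 1 the edgeR adjusted p was 0.171, and without p53WT replicate 2 it was 0.200. A fit with an offset for transcript GC content and length gave 0.29 (edgeR adjusted p = 0.105), and DESeq2 gave 0.32 (adjusted p = 0.224).

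XPC (ENSG00000154767.15, chr3:14145147-14178783, - strand) encodes the protein that recognises distorted DNA and starts global-genome repair. It was measured at 44.1 and 42.8 CPM in p53WT and at 47.8 and 44.9 CPM in CASM34. The groups did not overlap, but the nearest libraries were less than 1 CPM apart. The log2 fold change was 0.10 (SE 0.06, 95% interval -0.03 to 0.23, edgeR adjusted p = 0.434), which did not pass. POLH (ENSG00000170734.12, chr6:43576150-43615660, + strand), the polymerase that copies past ultraviolet photoproducts, gave 51.3 and 48.0 CPM in p53WT and 54.7 and 49.6 CPM in CASM34. These ranges overlapped, and the log2 fold change was 0.08 (SE 0.06, 95% interval -0.06 to 0.22, edgeR adjusted p = 0.580). The upper bounds for XPC and POLH lay below the DDB2 estimate, but both intervals overlapped the 95% interval of DDB2 (0.17 to 0.48). The difference between these genes was not tested. Without CASM34 replicate 1 the POLH value was 0.0008 and that of XPC 0.05.

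**Figure D2:**
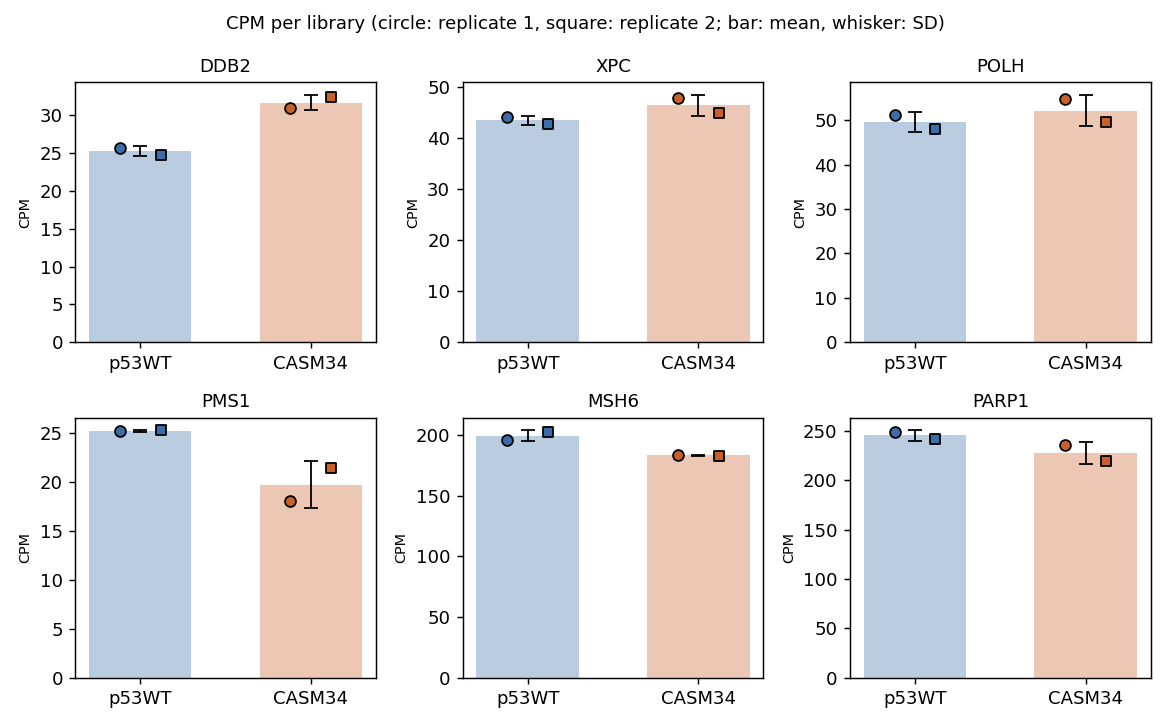
CPM of DDB2, XPC, POLH, PMS1, MSH6 and PARP1 in each library (y axes from 0; points are libraries, bars are means and whiskers SD, n = 2). DDB2 is at 31.0 and 32.4 CPM in CASM34 against 25.7 and 24.8 CPM in p53WT, the POLH groups overlap, and the PMS1, MSH6 and PARP1 points are lower in CASM34.

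The remaining damage recognition genes did not pass. DDB1, the partner of DDB2 in the ubiquitin ligase, was the most abundant of the 5 recognition genes at 101 TPM. It measured 317 and 306 CPM in p53WT and 310 and 291 CPM in CASM34, with overlapping groups (log2 fold change -0.05, SE 0.05, edgeR adjusted p = 0.648). The estimates of DDB1 and DDB2 stood on opposite sides of 0, but the 95% interval of DDB1 (-0.16 to 0.05) held 0. RAD23B and CETN2, the partners of XPC, had log2 fold changes of -0.06 and -0.0003. In transcription-coupled repair, which starts at a stalled RNA polymerase, ERCC8 gave 17.6 and 19.3 CPM in p53WT and 17.7 and 18.2 CPM in CASM34 (log2 fold change -0.04, SE 0.09, edgeR adjusted p = 0.863). Its CASM34 values lay inside the p53WT range, and the other gene of this group, ERCC6, was at -0.03.

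The 6 members that encode subunits of TFIIH, which opens the DNA around a lesion, had a median log2 fold change of -0.03, with 2 above and 4 below 0. The largest difference was that of GTF2H1, a core subunit, at 38.1 and 40.1 CPM in p53WT and 37.3 and 35.6 CPM in CASM34 (log2 fold change -0.10, SE 0.06, edgeR adjusted p = 0.471). Its groups did not overlap, yet it did not pass. GTF2H5, the smallest core subunit and the most abundant here at 64.8 TPM, measured 33.6 and 36.5 CPM in p53WT and 34.8 and 34.4 CPM in CASM34 (log2 fold change -0.02). The CASM34 libraries fell between the p53WT ones. Further TFIIH subunits stand in the wider list described below: GTF2H2, CDK7, CCNH and MNAT1 were at -0.16, -0.08, -0.19 and -0.12, and none passed.

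Among the 4 genes that verify and cut the damaged strand, 1 lay above 0 (XPA) and 3 below. ERCC5, the nuclease that cuts on the 3′ side of the lesion, had the largest difference, with 19.7 and 22.2 CPM in p53WT and 18.9 and 16.5 CPM in CASM34. Its groups did not overlap, and it did not pass (log2 fold change -0.24, SE 0.10, edgeR adjusted p = 0.233). The nuclease that cuts on the 5′ side is a dimer of ERCC1 and ERCC4. ERCC1 was at 108 and 125 CPM in p53WT and at 117 and 113 CPM in CASM34 (log2 fold change -0.01, edgeR adjusted p = 0.953). ERCC4 was at 14.4 and 15.5 CPM in p53WT and at 12.3 and 15.0 CPM in CASM34 (log2 fold change -0.14, SE 0.11, edgeR adjusted p = 0.570). Both genes had overlapping groups. Per length the partners were far apart, with means of 132 TPM for ERCC1 and 4.07 TPM for ERCC4.

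The 10 DNA glycosylases, which cut a damaged base from its sugar, were split evenly, with 5 above 0, 5 below and a median of -0.01. Their median GC content was the highest of the 10 role groups, 55.4%, and 19.4% of all genes above 55% GC lay below 0. With the GC and length offset only SMUG1 (0.02) and NEIL1 (0.11) lay above 0. UNG removes uracil and was the most abundant at 113 TPM. It gave 170 and 176 CPM in p53WT and 163 and 160 CPM in CASM34, groups that did not overlap (log2 fold change -0.10, SE 0.05, edgeR adjusted p = 0.294). NEIL1, which removes oxidised pyrimidines, had the largest fitted difference of the glycosylases but rested on 11 to 26 counts per library. Its values were 0.506 and 0.852 CPM in p53WT and 0.974 and 0.658 CPM in CASM34, which overlapped (log2 fold change 0.27, SE 0.45, edgeR adjusted p = 0.807). Its sign turned when 1 library was left out: the value was -0.04 without p53WT replicate 1 and -0.06 without CASM34 replicate 1. No difference in NEIL1 was detectable at this depth.

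SMUG1, another uracil glycosylase, measured 26.0 and 25.1 CPM in p53WT and 25.2 and 28.2 CPM in CASM34 (log2 fold change 0.06, edgeR adjusted p = 0.766). MUTYH, which removes adenine paired with oxidised guanine, measured 16.7 and 17.0 CPM in p53WT and 17.3 and 15.2 CPM in CASM34 (log2 fold change -0.05, edgeR adjusted p = 0.858). Both had overlapping groups. The other 6 glycosylases lay between -0.13 (NEIL3) and 0.12 (MPG), and none of them passed.

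The sugar left by a glycosylase is cut by an AP endonuclease and the gap is filled by POLB, and all 3 genes of this step lay below 0. APEX1, the main AP endonuclease, had the highest level of all 49 members at 154 TPM, with 141 and 149 CPM in p53WT and 139 and 140 CPM in CASM34. Its groups did not overlap, by about 1 CPM, and the log2 fold change was -0.06 (SE 0.05, edgeR adjusted p = 0.589). APEX2, a second AP endonuclease, stood at 55.2 and 54.5 CPM in p53WT and at 52.1 and 48.3 CPM in CASM34 (log2 fold change -0.12, SE 0.06, edgeR adjusted p = 0.299). It too was lower in each CASM34 library without passing. POLB stood at 16.1 and 16.9 CPM in p53WT and at 14.9 and 16.8 CPM in CASM34 (log2 fold change -0.06, edgeR adjusted p = 0.790), with overlap.

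Of the 6 genes for single-strand breaks and ligation, LIG1 lay above 0 and 5 lay below. PARP1, the sensor that marks breaks with poly(ADP-ribose), was the most abundant at 77.3 TPM. It gave 249 and 242 CPM in p53WT and 236 and 220 CPM in CASM34, with means of 245 ± 5.43 and 228 ± 11.4 CPM (SD, n = 2). The groups did not overlap, and the log2 fold change of -0.11 (SE 0.05) had an unadjusted edgeR p of 0.0495 and an adjusted p of 0.291. APTX, which clears abortive ligation ends, gave 34.9 and 33.4 CPM in p53WT and 29.8 and 33.6 CPM in CASM34 (log2 fold change -0.11, SE 0.07, edgeR adjusted p = 0.473). Its groups overlapped. LIG3, the ligase that works with XRCC1, gave 43.4 and 47.5 CPM in p53WT and 43.4 and 41.0 CPM in CASM34 (log2 fold change -0.11, edgeR adjusted p = 0.443), also overlapping.

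In mismatch repair 4 of the 5 members lay below 0, with a median of -0.10. PMS1 (ENSG00000064933.19, chr2:189784085-189877629, + strand), a MutL homologue, had the lowest fold change of all members. It was measured at 25.1 and 25.2 CPM in p53WT and at 18.0 and 21.4 CPM in CASM34, without overlap and with the wider spread in CASM34. The means were 25.2 ± 0.074 and 19.7 ± 2.38 CPM (SD, n = 2), and the fitted log2 difference of -0.37 (SE 0.09, 95% interval -0.56 to -0.17, edgeR adjusted p = 0.0648) missed the threshold. Without CASM34 replicate 2 it was -0.48 (edgeR adjusted p = 0.000240), and without CASM34 replicate 1 it was -0.24 (edgeR adjusted p = 0.248). MSH6, which recognises single mismatches as part of a dimer, was at 196 and 203 CPM in p53WT and at 184 and 183 CPM in CASM34. Its groups did not overlap, and its log2 fold change was -0.12 (SE 0.04, edgeR adjusted p = 0.183). It was the most abundant of the 5 at 59.7 TPM. PMS2 has near-identical pseudogene copies and its counts were fractional in all 4 libraries, so its log2 fold change of -0.06 is uncertain. Fractional counts in all 4 libraries were found for 11 members, with PMS2, MSH6 and MSH3 among them.

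PMS1 gave opposite answers per count and per transcript length. Effective length is RSEM's mean over a gene's transcripts, weighted by their estimated abundance. For PMS1 it came to 2567 and 2513 bases in p53WT against 1744 and 1775 bases in CASM34. The groups lay far apart, and the mean differed by -30.7% (CASM34 over p53WT). PMS1 TPM, which divides by this length, came to 11.7 and 11.9 in p53WT against 12.2 and 14.3 in CASM34, so that CASM34 was higher in TPM and lower in CPM. With the effective length as an offset the log2 fold change was 0.16 (edgeR adjusted p = 0.627). The model has 21 transcripts, and which of them carried the change was not tested. A change of effective length at least as large in size was found in 616 of all tested genes (3.86%), and in 63 of the 9947 with a mean of at least 10 CPM (0.633%).

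Effective lengths differed by over 5% between group means, with groups that did not overlap, for 6 members (12.2%: PMS1, LIG3, SMUG1, POLB, MUTYH and POLI), against 18.1% of all tested genes. LIG3 differed by -14.7%, with 3850 and 3261 bases in p53WT and 3213 and 2853 bases in CASM34. POLI differed by 17.4%, with 2056 and 2113 bases in p53WT and 2134 and 2759 bases in CASM34, the latter spread being wider than the distance between the groups. The difference was -6.20% for SMUG1, -5.67% for MUTYH and 6.60% for POLB. The sign of the difference in mean TPM was opposite to that of the fitted counts for 6 members (GTF2H3, MUTYH, LIG3, MSH3, PMS1 and ALKBH2).

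**Figure D3:**
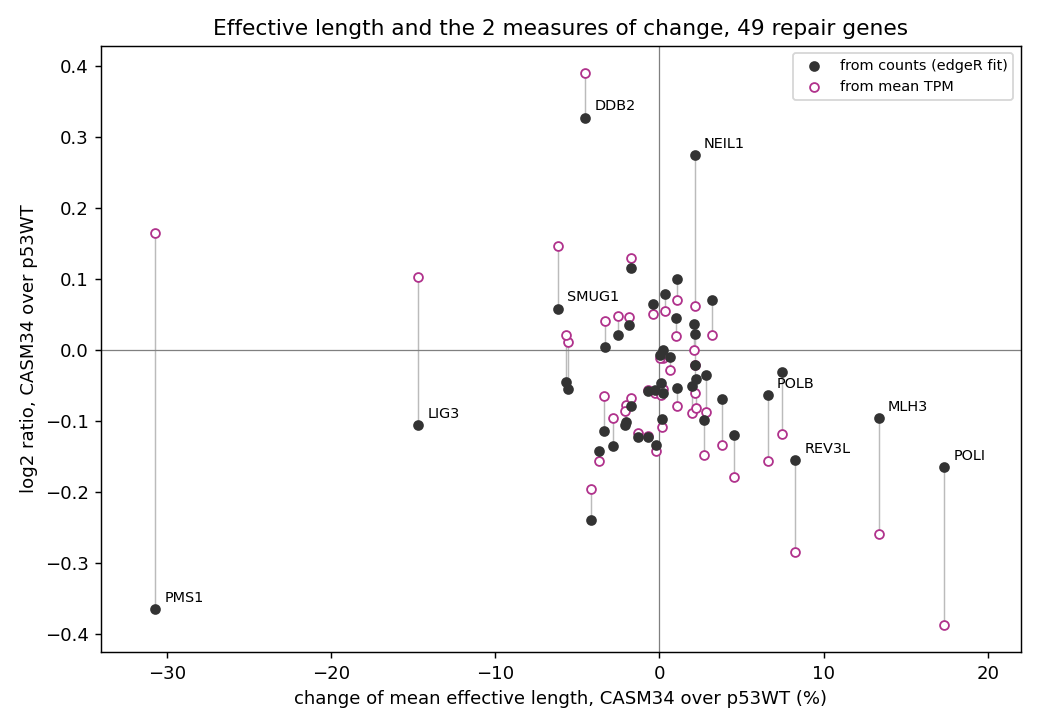
Change of mean effective length (x axis, percent, CASM34 over p53WT) against the log2 ratio of each repair gene from the edgeR count fit (filled) and from mean TPM (open), joined by a line per gene. PMS1, whose length differs by -30.7%, is at -0.37 by counts and above 0 by TPM, whereas both DDB2 points lie above 0.

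Of the direct reversal genes, which restore a base without cutting the strand, ALKBH3 gave 10.6 and 11.6 CPM in p53WT and 9.77 and 10.6 CPM in CASM34 (log2 fold change -0.14, SE 0.12, edgeR adjusted p = 0.609). The nearest libraries of the 2 groups were almost equal. ALKBH2, like ALKBH3 a demethylase of alkylated bases, was at 23.8 CPM in both p53WT libraries and at 23.9 and 25.2 CPM in CASM34 (log2 fold change 0.04, edgeR adjusted p = 0.858). MGMT, which takes alkyl groups from guanine, was at -0.01.

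The translesion polymerases had the lowest median of the 10 role groups, -0.12, with POLH above 0 and the other 4 below. They also had the lowest median GC content of these groups, 39.5%, and fold changes went with GC content, as described below. With the GC and length offset POLH was at 0.09, POLK at -0.03, POLI at -0.10, REV1 at -0.03 and REV3L at -0.11. The translesion median in that fit was that of POLK, -0.03. Lower medians were those of mismatch repair (-0.05, the value of MLH3) and of AP endonucleases and gap filling (-0.07, the value of APEX1). The translesion group was thus not the lowest there. POLI had the largest difference, at 6.90 and 7.24 CPM in p53WT and 5.80 and 6.90 CPM in CASM34 (log2 fold change -0.17, SE 0.15, edgeR adjusted p = 0.620). Its upper CASM34 library equalled the lower p53WT library to the digits printed. REV3L, the catalytic subunit of polymerase zeta, stood at 38.9 and 36.9 CPM in p53WT and at 34.6 and 33.3 CPM in CASM34 (log2 fold change -0.16, SE 0.07, edgeR adjusted p = 0.242). Its groups did not overlap, and it did not pass. POLK and REV1 were at -0.12 and -0.07. POLH and REV3L, which act one after the other at some lesions, had estimates on opposite sides of 0. Neither passed, and the 95% interval of POLH (-0.06 to 0.22) held 0.

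Per transcript length the members spanned a wide range, from 154 TPM for APEX1 to 0.705 TPM for NEIL1, with a median of 21.6 TPM beside 10.8 TPM over all tested genes. APEX1, ERCC1, UNG and DDB1 led, at 154, 132, 113 and 101 TPM. The lowest were REV3L at 4.75 TPM, ERCC4 at 4.07, POLI at 3.56 and NEIL1 at 0.705. ERCC4 TPM varied within groups (5.18 and 3.39 in p53WT, 3.47 and 4.22 in CASM34) and overlapped that of POLI (4.03 and 4.04 in p53WT, 3.21 and 2.96 in CASM34), so the order of these neighbours is not resolved. DDB2 at 28.6 TPM lay above the members' median, and XPC at 17.1 and POLH at 11.2 TPM lay below it.

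**Figure D4:**
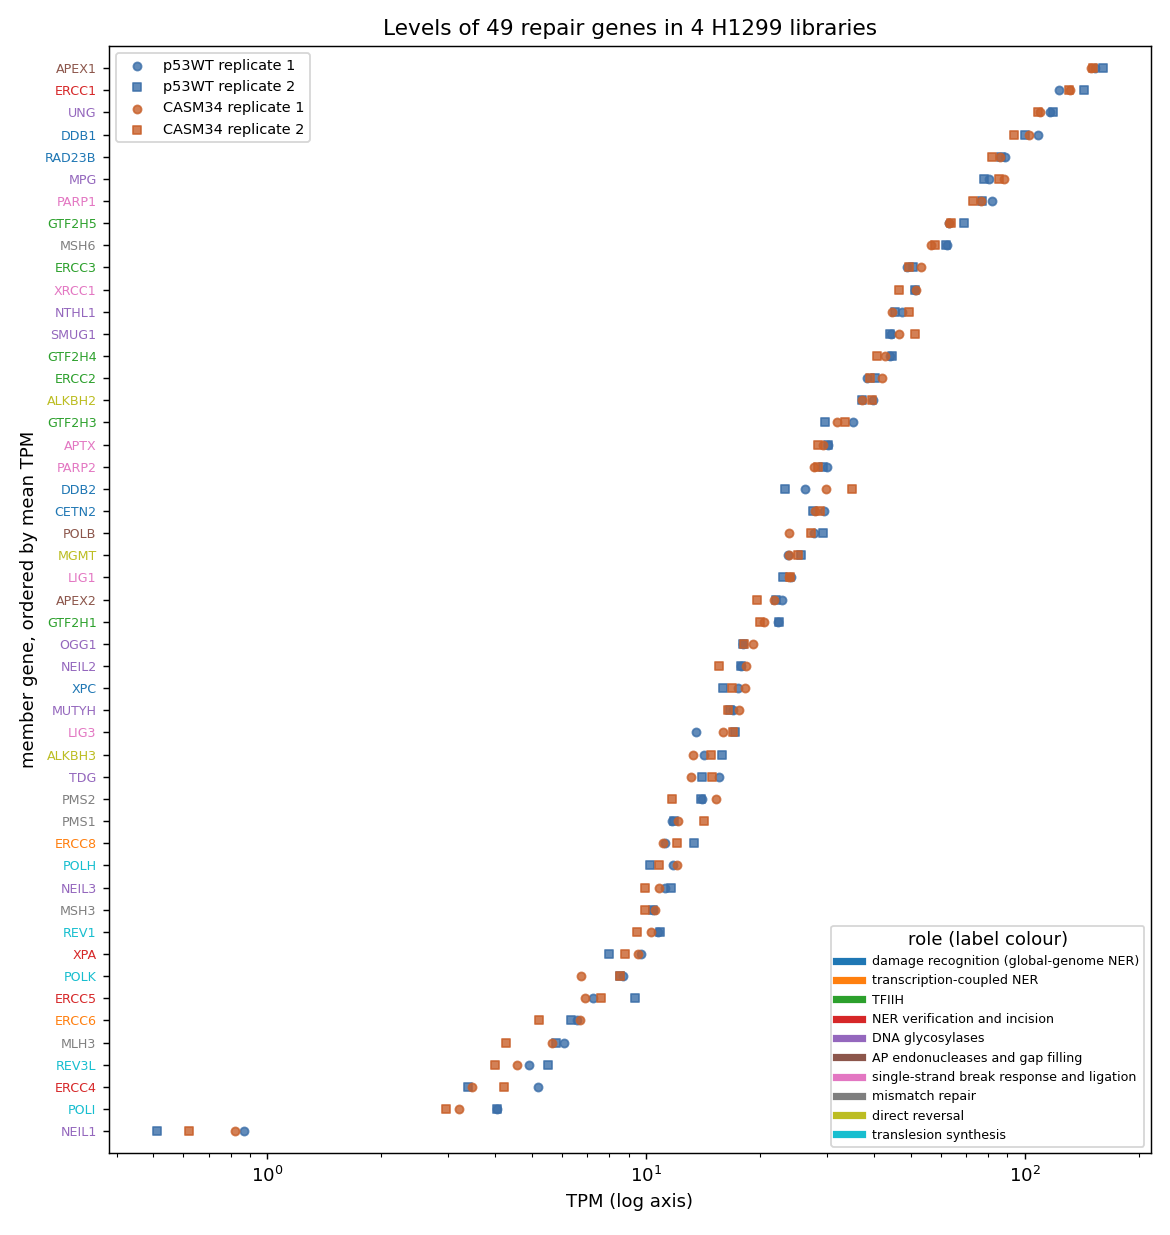
TPM of each repair gene in the 4 libraries (x axis, log scale; circles and squares are replicates 1 and 2), ordered by mean TPM. Levels run from 154 TPM for APEX1 to 0.705 TPM for NEIL1, and for most genes the libraries differ far less than the genes do.

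Fold changes of the members went with the GC content of their transcripts. Over the 49 genes Pearson's r was 0.53 and Spearman's rho 0.53, given as a description, since the genes share the same 4 libraries. Over all tested genes Pearson's r was 0.30 and Spearman's rho 0.47. In the fit with the GC and length offset, Pearson's r over the members was -0.14 and Spearman's rho -0.24. Below 45% GC, 19 of 21 members lay below 0, as did 73.8% of all genes there. Between 45% and 55% GC it was 12 of 17 members and 56.3% of all genes, and above 55% GC 4 of 11 members and 19.4% of all genes. PMS1, at 38.2% GC, and DDB2, at 53.5% GC, were at the low end and above the middle of this range. Once GC content and length entered as an offset, 44 of all tested genes passed (0.276%), 22 upward and 22 downward, in place of 257 and 55, and 0 members passed, with 8 of 49 members at an unadjusted edgeR p under 0.05 in that fit beside 12.6% of all genes. The members still leaned downward, with 34 of 49 below 0 beside 56.5% of all genes, and the medians were 0.09 for the 3 p53-induced genes and -0.07 for the other 46.

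**Figure D5:**
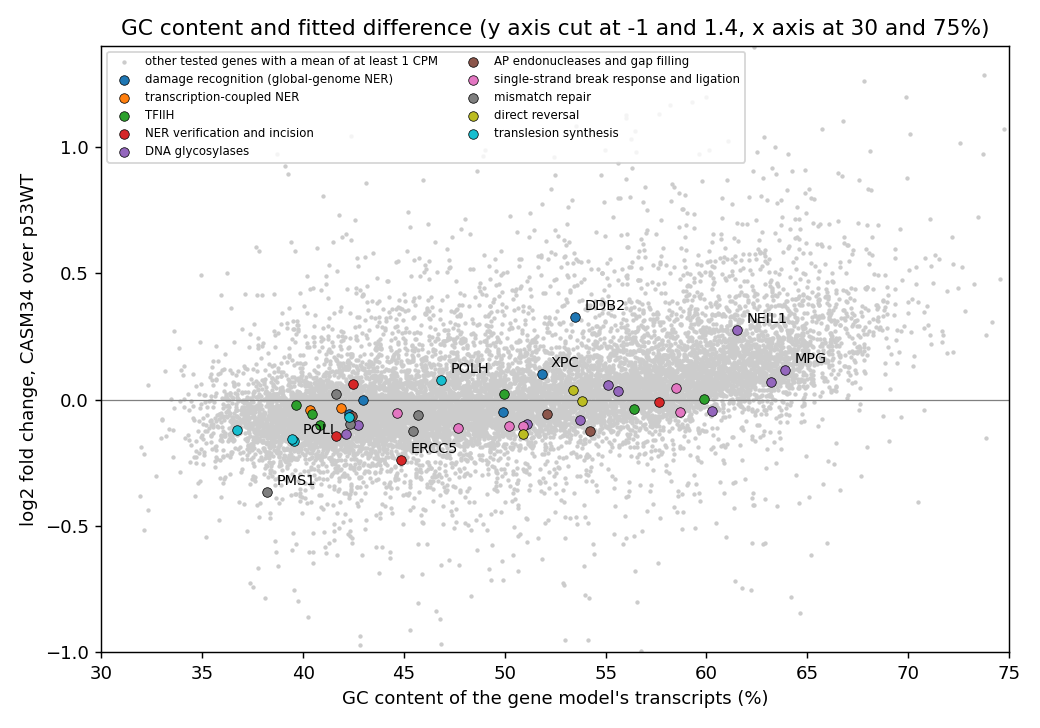
Log2 fold change (y axis, CASM34 over p53WT) against transcript GC content (x axis, percent) for the 49 repair genes, coloured by role, and for other tested genes with a mean of at least 1 CPM (grey; axes shortened as the title says). The grey cloud rises to the right, and PMS1 at 38.2% GC and DDB2 at 53.5% GC are the lowest and highest members.

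The partners of these pathways were read from a wider list of 47 genes that holds ubiquitin ligase and TFIIH subunits, RPA, flap and end processing enzymes, replicative polymerases, the PCNA clamp with its loader, and regulators of lesion bypass. All 47 were tested, of which 0 rose, 1 fell (RFC5) and 46 did not pass, beside 1.95% of all genes called and 0.345% that fell. At an unadjusted edgeR p under 0.05 there were 18 of the 47, a larger share than the 17.1% of all genes. Below 0 lay 37 of the 47 (78.7%), beside 50.2% of all genes, with a median of -0.10. The medians were -0.09 for 13 excision repair partners, -0.05 for 9 base excision genes, -0.11 for 15 mismatch repair and resynthesis genes and -0.10 for 10 bypass genes. RFC5 (ENSG00000111445.14, chr12:118013588-118033130, + strand), a subunit of the clamp loader, went from 56.8 and 59.9 CPM in p53WT to 49.7 and 48.1 CPM in CASM34. The groups lay well apart, and the log2 fold change was -0.25 (SE 0.06, edgeR adjusted p = 0.0403). The RFC5 call was lost under 8 of 16 alternatives, among them the fits without p53WT replicate 1 (edgeR adjusted p = 0.0915) and without p53WT replicate 2 (0.215).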

How the data were processed

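Poly(A) RNA of 4 H1299 libraries was sequenced. Tools named in the submitters' processing notes are RSEM, STAR and Trim Galore, with GRCh38. For tool versions, annotation release and strandedness the entry is: not given in the sources used here. Per the file headers, the authors deposited RSEM expected counts, effective lengths and TPM per gene. RSEM shares ambiguous reads among genes, and 20 of the 49 members had fractional counts in at least 1 library.

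Expected counts were rounded and tested with edgeR 4.0.16 in R 4.3.3 (quasi-likelihood F test with group as its single term, TMM factors, low genes dropped by filterByExpr at a minimum count of 10), leaving 15965 genes tested and 45887 removed. Benjamini-Hochberg adjustment ran over all genes tested. Library totals were 21717726 and 25969760 (p53WT) and 26906095 and 18086983 (CASM34). Counts differed within groups by more than counting error (chi-square per degree of freedom 3.86 and 3.92), so no library was a copy of the other in its group. Symbols matched 61850 of 61852 IDs, and coordinates and transcript GC are those of GENCODE 29. Alternatives used DESeq2 1.42.0, limma 3.58.1 on log2(TPM + 1), other scalings, filters and offsets. The fit was tested on simulated data.

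The members and lists were chosen with earlier results of these data known. Genes named with values in every library were DDB2, XPC and POLH, every gene that passed, in each role the member with the largest fold change and the most abundant one, the 3 least abundant, and those with a shifted effective length. REV3L falls outside this rule and was added after its values were seen.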

Additional observations from a re-analysis of the deposited data

How the results depend on the processing

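With 2 libraries per group, small differences in the repair genes were not resolved. The count of all genes called (312) was 777 with no filter, 195 with DESeq2, 3 with the effective length offset and 44 with the GC and length offset, and limma on log2(TPM + 1) or log2(TPM + 0.1) called 0 (1820 and 1811 at an unadjusted p under 0.05). Leaving out 1 library gave 109 to 919 genes, 0 to 2 members and 0 to 3 wider genes. The fits without p53WT replicate 1, p53WT replicate 2, CASM34 replicate 1 and CASM34 replicate 2 called 109, 153, 497 and 919 genes. The member count (1) was 2 with no filter and with voom. It was 0 with edgeR on library totals, DESeq2, both TPM fits, and edgeR with either offset (7, 4, 3, 2, 3 and 8 members at an unadjusted p under 0.05). The wider count (1) was 4 with no filter and 0 with library totals, DESeq2, both TPM fits and either offset (18, 12, 10, 10, 12 and 14 at an unadjusted p under 0.05). Over all genes the same settings, in this order, gave 2687, 1245, 1820, 1811, 1901 and 2015 at an unadjusted p under 0.05. The genes tested were 26177 with DESeq2 and 15965 with the others. The median of DDB2, XPC and POLH stayed above 0 with 1 library left out (0.0499, without CASM34 replicate 1, to 0.141), and that of the other 46 below (-0.0852, without p53WT replicate 1, to -0.0425). The deviations of same-numbered libraries from their group means had a correlation of 0.0335. A single correlation cannot decide whether the numbers pair the libraries. The share of mitochondrially encoded mRNAs was higher in replicate 1 of either group. For p53WT it was 1.35% against 1.03% in replicate 2, and for CASM34 1.71% against 1.37%. Summed member CPM was lower in replicate 1 for p53WT but higher for CASM34. Pairing was not tested further. With the replicate block 1159 genes, 2 members (DDB2 and PMS1) and 6 wider genes were called. Of the named genes, only DDB2 and RFC5 lost a call and only PMS1 gained one under these alternatives, and no call reversed. The causes were not tested.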
